A study of Ovis aries with 26 samples.

Results

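Duct cells of the sheep pancreas were examined in 26 single-cell RNA libraries of 23 animals, and 11814 of 79510 kept cells were called duct cells. No deposited annotation was used, so each cell was called from its own counts. A barcode was kept with over 200 and under 6000 genes and under 25% of its unique molecular identifiers (UMIs) from mitochondrial genes. A kept cell was a duct cell when it held at least 1 UMI of 3 or more of the 6 genes KRT7, KRT19, CFTR, SLC4A4, CLDN4 and DCDC2. It also had to carry AQP8 at under 300 counts per 1000000 (CPM) of its UMIs, fewer than 3 UMIs of CHGA, and no UMI of PECAM1, CDX1 or CDH17. The members were thus chosen by the measured counts of these genes, which are given below as a description, with no test.

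The study compared wild-type (WT) sheep with sheep lacking the chloride and bicarbonate channel CFTR, as a model of cystic fibrosis (CF), from mid gestation to term. At 80 days of gestation 3 CF fetuses were compared with 4 male controls, of which 2 were WT and 2 carried 1 disrupted CFTR allele (HZ, CFTR+/-) and were used as WT by the study. At 120 days there were 3 WT fetuses, 4 cloned CF fetuses and 2 naturally bred female CF twins, and at term 4 WT lambs and 3 CF lambs. All animals were of the Romney breed, and the controls were naturally bred, with 2 males and 1 female among the WT fetuses of 120 days and 3 males and 1 female among the WT lambs. Every cloned animal came by nuclear transfer from 1 male CFTR-/- fibroblast line with a disrupted exon 2, namely all 3 CF fetuses of 80 days, 4 of 6 CF fetuses of 120 days and CF lamb 3, whereas CF lambs 1 and 2 were naturally bred females. CF genotype and cloning therefore cannot be told apart at 80 days or between cloned CF and WT at 120 days. The study also reports that the reagent kit version and the digestion enzyme varied, and that animals came from several annual breeding cycles. It does not say which animals had which, so the part of these in the comparisons was not tested. Of the 4 controls of 80 days 3 were triplets. By the study's account the 3 CF fetuses of 80 days came from 2 ewes and the cloned fetuses of 120 days from 3. At least 2 of each therefore shared a ewe. The study's animal numbers leave it possible that other fetuses of a group did too. The tests count each animal as independent, so their p-values do not allow for litters. The libraries read the 3′ ends of transcripts, so counts of CFTR do not check the exon 2 genotype.

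Pancreatic duct cells line the tubes that carry digestive enzymes to the gut. They secrete bicarbonate and fluid through CFTR, the sodium bicarbonate cotransporter SLC4A4 and carbonic anhydrase, under control of secretin, and keratins KRT7 and KRT19 and claudins give the sheet its structure. In the fetus, duct-forming cells descend from SOX9-positive progenitors and divide, and in cystic fibrosis the duct lumen fills with secretions and the organ becomes fibrotic.

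The number of duct cells per animal ran from 97 to 1492, and their summed UMIs ran from 1043720 to 20772408 per animal. The median duct cell held between 4105 UMIs in WT lamb 4 and 18146 UMIs in CF fetus 1 of 80 days. No pair of the 325 pairs of libraries shared more than 12 cell barcodes. Cloned CF fetus 3 of 120 days stood apart, with 97 duct cells, a median mitochondrial share of 17.0% in them (4.00% to 9.66% in the other animals) and 359 cells with 2 or more PECAM1 UMIs among its 943 kept cells. WT lamb 1 stood apart in its share of duct cells, 27.4% of 1082 kept cells. Results that rest on these animals are given with and without them.

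EHF was read as a check of the label, and a small group of members carried acinar transcripts. EHF, an epithelial transcription factor of duct cells that the rule did not use, was present with at least 1 UMI in 88.3% of the 11069 duct cells that held few acinar transcripts. At an equal depth of 3000 UMIs it was found in 47.0% to 81.5% of the duct cells of an animal and in 0.305% to 2.16% of cells with 2 or more PECAM1 UMIs, by group. By number of rule genes, whose median depth rose from 5332 UMIs with 3 to 12789 with 6, EHF was found in 22.5% of the 1168 cells with 2 rule genes, just outside the rule, in 45.2% of the 1145 duct cells with 3, just inside it, in 77.2% of 1506 with 4, in 87.3% of 3179 with 5 and in 94.99% of 5984 with 6. The 15 acinar markers, genes of digestive enzymes and their partners, made up more than 20000 CPM in 745 duct cells, or 6.31% of all. These cells held a median of 26113 UMIs against 9743 in the others, and 13.3% of them against 2.02% were marked as likely doublets. They held EHF in 49.1%, CFTR in 36.8% and DCDC2 in 33.0% of cells, against 88.3%, 76.0% and 86.8% in the other duct cells. They made up 32.0% of the duct cells of CF lamb 2, 16.3% in WT lamb 2, 15.7% in CF lamb 1 and 12.1% in cloned CF fetus 2 of 120 days, and 0.673% to 8.25% in the other 19 animals.

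The level of acinar transcripts in the median duct cell was set beside that in cells of another kind. In WT lamb 2 it was 9177 CPM in duct cells and 10811 in cells with 2 or more PECAM1 UMIs, which mark endothelium and do not make digestive enzymes. Both were the highest of the 23 animals. In cloned CF fetus 3 of 120 days it was 179 and 0, the lowest of the 23 animals in both, and in CF lamb 3 it was 433 and 345. Of the 23 animals, 20 had the higher value in duct cells. Calls at term were therefore also made without the 745 cells rich in acinar transcripts, an alternative chosen after the data were seen.

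**Figure D1:**
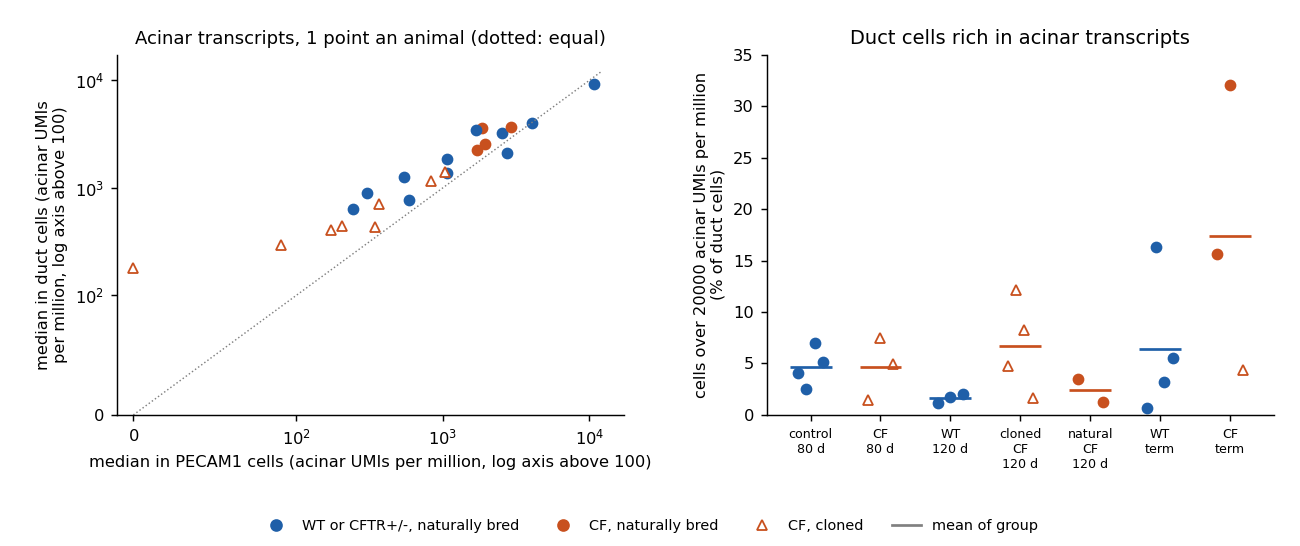
Left, the median level of 15 acinar genes in duct cells (vertical) against that in cells with 2 or more PECAM1 UMIs (horizontal), in CPM of a cell's UMIs on axes that are logarithmic above 100, with 1 point for each of 23 animals and a dotted line of equality. Right, the percentage of duct cells with more than 20000 CPM of acinar genes, with a line at each group's mean; CF lamb 2 has the highest value, 32.0%.

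Levels of genes are CPM of the summed duct cell UMIs of an animal, without ribosomal protein genes and without the scaling factors of the fit. Those factors ran from 0.590 in CF lamb 2 to 1.23 in CFTR+/- fetus 2 of 80 days, and a lower factor raises the scaled level. Changes between groups are log2 fold changes of the edgeR fit with their standard errors. Duct cells were set against the other kept cells of the same animal, and these values describe the cells that the rule chose. Among the 20 genes with the largest median log2 ratio of levels in CPM, with 1 added, were the matrix protease MMP7 at 5.66, the carboxypeptidase CPB2 at 5.48, angiotensinogen AGT at 5.46, the apolipoprotein APOA1 at 5.38, the proton pump subunit ATP6V1B1 at 5.17, the ciliary dynein DNAH11 at 5.11, the YAP target ANKRD1 at 5.00, the potassium channel subunit KCNE3 at 4.96 and the secretin receptor SCTR at 4.59, against 0.65 for the median gene. Each of these 9 genes was higher in duct cells in 23 of 23 animals. APOA1 had the highest level of them, with a median of 6036 CPM in duct cells and 179 CPM in the other cells. Of 22 duct transcription factors in the files, 14 were higher in duct cells in every animal, as were 17 of 25 genes of keratins, junctions and polarity, beside 10.3% of all 24389 genes and 15.6% of the 16186 genes above 0 CPM in the median animal. So were 13 of 34 genes of bicarbonate, chloride and water transport, 5 of 24 liver-like secreted proteins and 4 of 22 mucins and secretory goods, whose median log2 ratios were 0.74, -0.0369 and 0. The rule limited PECAM1 and CHGA, and the 9 endothelial markers summed to 16.2 to 57.6 CPM in duct cells and 58.5 to 5703 CPM in the other cells of each animal, and the 14 endocrine markers to 47.6 to 2932 and 194 to 41524 CPM.

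The rule genes themselves varied between the groups, and their values are a description. CFTR was detected in CF and in WT duct cells, at 416, 268, 316 and 186 CPM in the 4 controls and 425, 524 and 612 CPM in the CF fetuses of 80 days, and at 284, 234, 275 and 212 CPM in WT and 203, 151 and 216 CPM in CF lambs. SLC4A4 was at 1028, 911, 1083 and 473 CPM in WT lambs and at 266, 44.4 and 182 CPM in CF lambs. KRT7 was at 316, 222, 216 and 388 CPM in controls of 80 days and at 902, 719.5 and 863 CPM in CF fetuses. CFTR (by 416 against 425 CPM), KRT7, KRT19 and CLDN4 did not overlap between the groups at 80 days, all high in CF, and SLC4A4 did not at term, low in CF. The share of all genes without overlap was not set beside them, so this shows nothing particular to the rule genes. EHF, outside the rule, ran from 172 to 637 CPM over the 23 animals.

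The share of kept cells that were duct cells was compared over animals, and no comparison passed after adjustment. It rests on the levels of the rule genes and on the rule's limits too. Of 21529 kept cells with 3 or more rule genes 9715 failed these limits, 8546 of them on AQP8. Such failures at 80 days numbered 692, 158, 156 and 347 in the controls and 95, 462 and 407 in the CF fetuses. At 80 days the shares were 13.3%, 19.2% and 22.9% in the CF fetuses, 18.5% ± 4.81 (SD, n = 3), and 13.3%, 9.55%, 7.42% and 11.5% in controls, 10.4% ± 2.51 (SD, n = 4). The lowest CF value and the highest control value were close, at 13.33% and 13.26%, and their 95% Wilson intervals, which cover counting error only, were 11.9% to 14.9% and 11.998% to 14.6%. The exact two-sided permutation test over animals gave p = 0.0571, the smallest that 3 against 4 animals allow, and an adjusted p of 0.343 over the 6 comparisons of shares. The rule counts CFTR, KRT7, KRT19 and CLDN4, which were high in CF at 80 days. The test therefore cannot tell more duct cells from cells that pass the rule more readily. In cells thinned to equal UMIs the shares were 13.2%, 17.9% and 22.6% in CF and 11.7%, 8.59%, 6.27% and 10.2% in controls. Thinning evens the depth but not the levels of the rule genes.

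At the later ages the spread between animals was wider than the difference. At 120 days the 6 CF fetuses ran from 10.3% to 42.1% with a median of 15.5%, and the 3 WT fetuses from 11.7% to 19.8% (exact permutation p = 0.833, adjusted p = 0.857). Cloned CF fetus 4 alone stood at 42.1%, and without it the mean of CF fell below that of WT by 0.942 percentage points. At term the CF lambs were at 9.12%, 11.7% and 36.2% and the WT lambs at 27.4%, 5.71%, 6.84% and 7.18% (exact permutation p = 0.343, adjusted p = 0.686). Without CF lamb 3, the clone, the difference of means turned to -1.37 points, and without WT lamb 1 the groups no longer overlapped, with means of 19.02% and 6.58% (exact permutation p = 0.1). That p is the smallest that these numbers of animals allow. Neither WT age step nor the cloned CF step passed, with exact p of 0.114, 0.571 and 0.857 and adjusted p of 0.343, 0.857 and 0.857.

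The share of dividing duct cells was lower at each later age in WT, lower at 120 than at 80 days in cloned CF, and lower in WT than in CF lambs at term, although no comparison passed after adjustment. A duct cell was called dividing when it held 3 or more UMIs of 25 cell division genes after thinning to 3000 UMIs. The share was 17.8%, 16.7%, 16.8% and 22.6% in controls of 80 days, 7.48%, 7.05% and 5.52% in WT of 120 days, and 1.42%, 2.97%, 2.78% and 1.22% in WT lambs. In CF it was 16.3%, 14.0% and 20.2% at 80 days, 6.36%, 11.2%, 10.3% and 7.78% in clones of 120 days, 8.69% and 5.56% in the twins, and 4.21%, 10.4% and 9.06% at term. The CF lambs, at 7.88% ± 3.25 (SD, n = 3), did not overlap with the WT lambs, at 2.10% ± 0.904 (SD, n = 4).

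The difference at term and those from 80 to 120 days in WT, from 120 days to term in WT and from 80 to 120 days in cloned CF each had no overlap and p = 0.0571 by the exact two-sided permutation test, the smallest 3 against 4 allow, with an adjusted p of 0.0857 over 6 comparisons. CF and WT overlapped at 80 days (exact p = 0.457, adjusted p = 0.457) and at 120 days (exact p = 0.286, adjusted p = 0.343). Without cells rich in acinar transcripts the CF lambs were at 3.80%, 11.7% and 8.98% and the WT lambs at 1.43%, 3.01%, 2.87% and 1.30%. With a minimum of 2 UMIs the groups overlapped at term (exact p = 0.114). Of the duct cells, 11299 reached 3000 UMIs and entered.

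**Figure D2:**
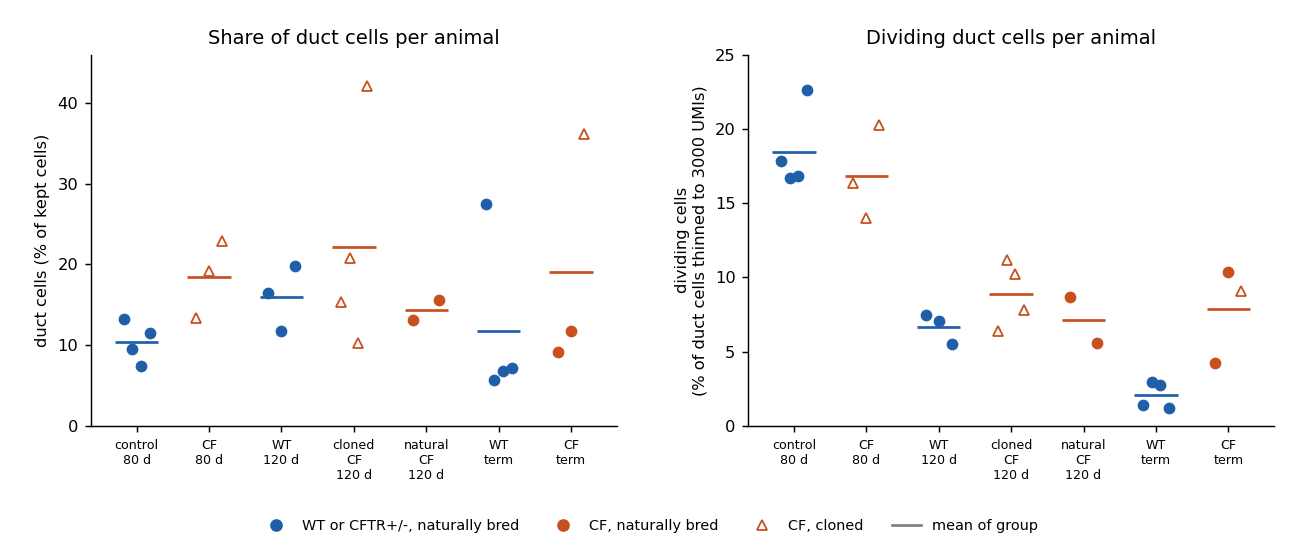
Left, duct cells as a percentage of kept cells; right, dividing cells as a percentage of duct cells thinned to 3000 UMIs. Each point is 1 animal (triangles are clones) and each line the mean of its group; dividing shares of the 4 WT lambs lie between 1.22% and 2.97%, below the 3 CF lambs at 4.21% to 10.4%.

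In WT duct cells from 80 to 120 days, the plasma proteins AGT and SERPINA1 and the antibody carrier PIGR rose, while the transcription factor ELF5, the growth factor FGF7 and the checkpoint kinase BUB1 fell. Angiotensinogen AGT, the precursor of the angiotensins, went from 357, 505, 401 and 156 CPM in controls of 80 days to 2188, 1514 and 1716 CPM at 120 days. Every fetus of 120 days was above every fetus of 80 days, with a log2 fold change of 2.61 ± 0.59 (SE, adjusted p = 0.041). SERPINA1, the protease inhibitor alpha-1 antitrypsin, went from 28.3, 29.6, 35.5 and 7.28 CPM to 379, 241 and 247 CPM, a rise of 3.81 ± 0.82 (SE, adjusted p = 0.0322). PIGR, which carries IgA across epithelia, rose by 2.099 ± 0.34 (SE, adjusted p = 0.0065), and CITED4, a transcriptional cofactor, by 2.16 ± 0.28 (SE, adjusted p = 0.000731). ELF5, of the ETS family, fell from 357, 177, 194 and 335 CPM to 39.6, 39.1 and 29.6 CPM, a change of -2.65 ± 0.50 (SE, adjusted p = 0.0141). FGF7 changed by -5.61, the guanylin receptor GUCY2C by -1.802 and BUB1 by -1.87, with adjusted p of 0.00905, 0.0115 and 0.0231.

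The edgeR quasi-likelihood test called 62 genes higher (0.455% of 13622 tested) and 41 lower (0.301%) at 120 days. Of 20 tested liver-like secreted proteins 2 rose and 0 fell, with a median log2 fold change of 0.41 against -0.00 for all genes. Of 14 interferon response genes IRF7 (2.87) and IFI44 (2.43) rose. Of 25 cell division genes, a list that does not hold BUB1, 0 passed in either direction, with a median of -1.41. The 10 stromal markers, of which FGF7 is not one, summed to 179 to 1213 CPM in duct cells of 80 days and 40.1 to 142 CPM at 120 days, and 0 of them passed. Of 9 immune markers 0 passed, with 7 negative and 2 positive changes and a median of -2.46. Of 14 endocrine markers 0 passed, with 11 negative and 3 positive changes and a median of -1.16. The part of these cell types in the changes of this step was not tested. The count fell to 4 genes without the 2 CFTR+/- fetuses and rose to 512 in a fit of these groups alone. DESeq2 called 418 genes, and 159 were called without cells rich in acinar transcripts. With 1 animal left out it was 31 to 38 without either CFTR+/- fetus or any WT fetus of 120 days, and 76 and 95 without either WT fetus of 80 days. Of 17 genes followed singly in this comparison, 3 (PIGR, CITED4 and IFI44) kept the call when any 1 animal was left out, and the adjusted p of the others reached 0.239.

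From 120 days to term in WT duct cells the fatty acid enzyme CPT1A and the quinone reductase NQO1 rose, and the growth factors PTN and MDK fell. CPT1A, which admits fatty acids to mitochondria, went from 9.79, 3.51 and 8.74 CPM to 93.7, 45.1, 76.3 and 34.1 CPM, with no overlap and a log2 fold change of 2.96 ± 0.36 (SE, adjusted p = 0.000153). NQO1, which detoxifies quinones, rose by 2.78 ± 0.34 (SE, adjusted p = 0.000141) and the hepatic transcription factor CREB3L3 by 4.56 ± 0.76 (SE, adjusted p = 0.00455). The chemokine CCL26 rose by 3.37 after a rise of 3.29 in the step before, and stood at 755, 1429.5, 901 and 4205 CPM in WT lambs. The heparin-binding growth factors fell: PTN went from 1828, 2739 and 1984 CPM to 469.8, 288, 483 and 527 CPM, a change of -2.34 ± 0.37 (SE, adjusted p = 0.00345), and MDK changed by -2.72 ± 0.48 (SE, adjusted p = 0.00761). IGFBP2, which binds insulin-like growth factors, changed by -3.53, the cartilage collagen COL9A3 by -3.11 and the imprinted PEG10 by -2.84, with adjusted p of 0.00411, 7.3e-05 and 0.00202.

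In this step 59 genes were higher (0.433% of genes tested) and 62 lower (0.455%). Of 21 profibrotic ligands PTN and MDK fell and 0 rose, with a median of -0.61, and of 25 cell division genes RRM2 fell (-1.94), with a median of -1.80, against 0.00 for all genes. Of 21 genes of bicarbonate, chloride and water transport the calcium-activated chloride channel ANO1 rose (2.72). Without cells rich in acinar transcripts RRM2 was at -1.91 (adjusted p = 0.0837) and ANO1 at 2.66 (adjusted p = 0.0515), so neither passed. In that alternative 2 other cell division genes were called lower, beside 43 of all genes tested. Of 14 endocrine markers 0 passed, with 14 negative changes and a median of -2.75, and their sum in duct cells was 390 to 1404 CPM at 120 days and 60.8 to 460.1 CPM at term. Of 10 stromal markers 0 passed, with 9 positive changes and a median of 1.199, and their sum was 40.1 to 142 CPM and 6.93 to 498 CPM. The part of either cell type in the changes of this step was not tested. Without WT lamb 1 and cloned CF fetus 3 the count was 225, and in a fit of these groups alone it was 41. With 1 animal left out it was 40 to 50 without any WT fetus of 120 days, 48 without WT lamb 4, 68 without lamb 3, 113 without lamb 1 and 187 without lamb 2. Of 17 genes followed singly 9 kept the call when any 1 animal was left out, CPT1A, NQO1, CREB3L3, PTN, MDK, IGFBP2, COL9A3 and PEG10 among them, and the adjusted p of the others, CCL26, RRM2 and ANO1 included, reached 0.157.

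Cloned CF duct cells from 80 to 120 days were followed through the same step. CLDN10, a claudin that forms ion pores between cells, went from 5.62, 3.32 and 1.74 CPM to 101, 16.8, 3.32 and 169 CPM, with cloned fetus 3 among the values of 80 days, a change of 4.700 ± 1.01 (SE, adjusted p = 0.0167). CCL26 rose by 4.45 ± 0.81 (SE, adjusted p = 0.00716), PIGR by 2.102 ± 0.34 (SE, adjusted p = 0.00303) and SERPINA1 by 4.18 ± 0.93 (SE, adjusted p = 0.0203). The Notch target HES1 went from 246, 179 and 180.2 CPM to 721, 761, 681 and 1205 CPM, 2.26 ± 0.55 (SE, adjusted p = 0.0314). At equal depth HES1 was found in 29.8% to 35.9% of these duct cells at 80 days and 54.1% to 73.8% at 120 days. Cells with 2 or more PECAM1 UMIs of the same groups held it in 25% and 60.5%, so they shifted the same way. Whether the rise of HES1 was particular to duct cells was not tested. The chemokine CXCL12 fell from 444, 412 and 467 CPM to 15.8, 21.05, 34.4 and 1.45 CPM, -4.57 ± 0.86 (SE, adjusted p = 0.00771), and IGFBP2 changed by -2.81 ± 0.53 (SE, adjusted p = 0.00771). Stromal markers in these duct cells summed to 544 to 1158 CPM at 80 days and 22.0 to 239 CPM at 120 days, with POSTN called lower, and their part in the change of CXCL12 was not tested. The imprinted genes PEG10, NNAT, NDN and PHLDA2 fell, 4 of 17 tested, beside 1.43% of all genes, with changes of -1.89, -2.47, -1.202 and -3.11. The type IV collagen chains COL4A1 (-1.57) and COL4A2 (-1.71) fell as well.

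Here 227 genes were higher (1.67%) and 195 lower (1.43%), 422 in all. Leaving out 1 animal gave 55 (without CF fetus 3 of 80 days), 110 to 198 (CF fetus 1 or 2 of 80 days, cloned CF fetus 1 or 4 of 120 days), 391 (cloned CF fetus 2) and 754 (cloned CF fetus 3). A fit of these groups alone called 154 genes, and 779 were called without WT lamb 1 and cloned CF fetus 3 of 120 days. The difference between the cloned CF and the WT change called 0 genes (0.0%) by edgeR, with 973 at an unadjusted p under 0.05, and DESeq2 called 14, so no gene named here was shown to change differently in the 2 genotypes. Acinar markers had a median of 1.29 with 0 of 15 called. Without cells rich in acinar transcripts, which were chosen by these markers, 11 were called higher, beside 295 of all genes tested. Of 23 genes followed singly 7 kept the call when any 1 animal was left out, CCL26, CXCL12, IGFBP2, PIGR, PEG10 and APOA1 among them. The others lost it at least without CF fetus 3 of 80 days, where 16 did, with adjusted p of up to 0.201.

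**Figure D3:**
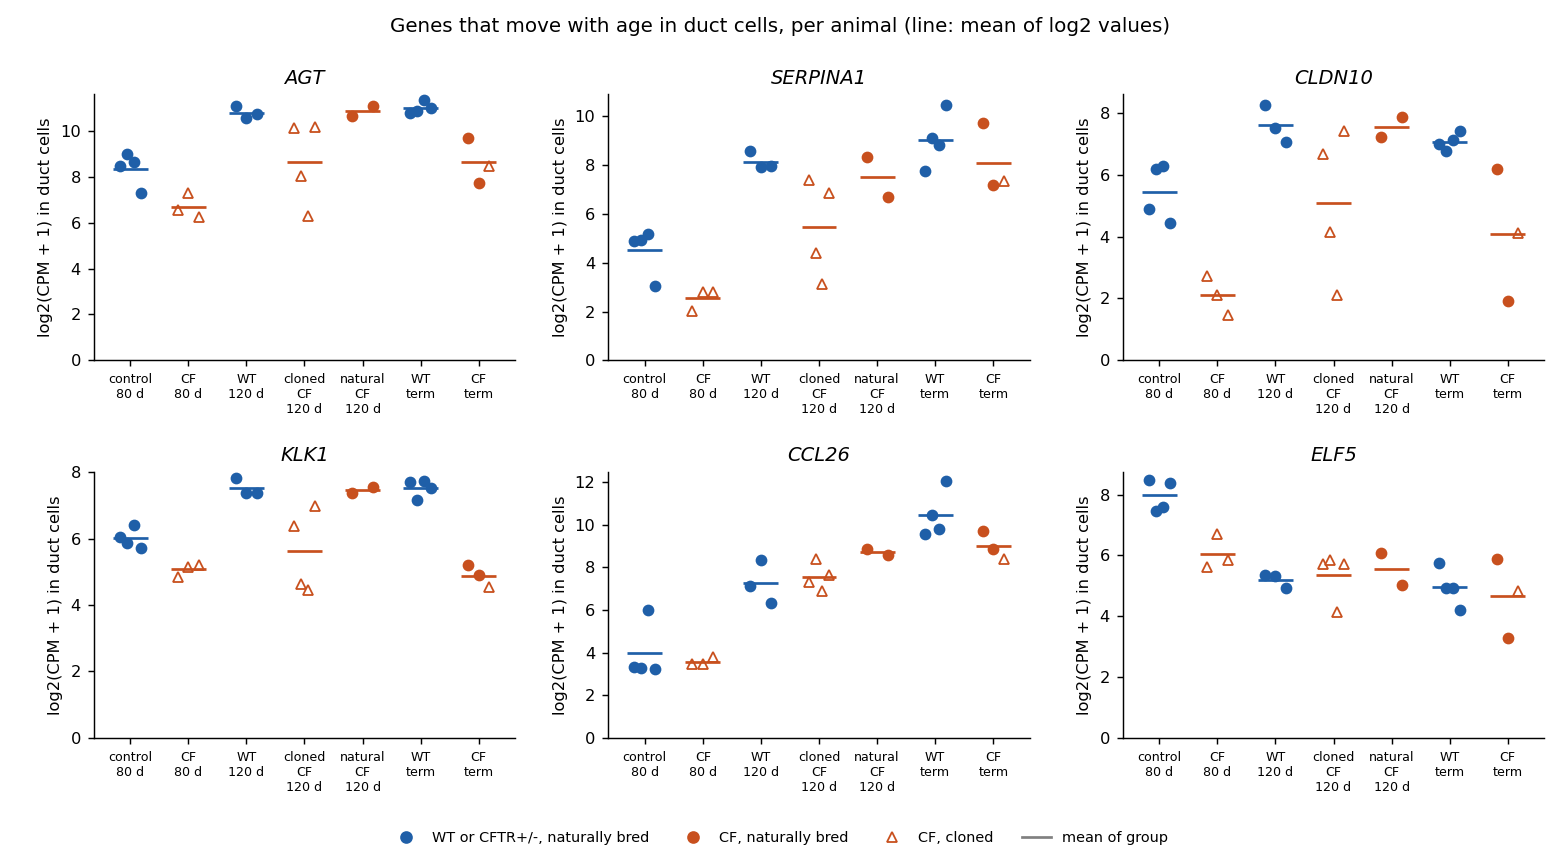
Levels in duct cells of 6 genes as log2(CPM + 1), with 1 point for each animal (triangles are clones) and a line at each group's mean. AGT, SERPINA1 and CCL26 are higher at 120 days than at 80 days in WT, ELF5 is lower, and the naturally bred CF twins of 120 days lie near WT for AGT and CLDN10.

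CF was compared with WT over the 3 ages together by averaging the contrasts of 80 days, cloned 120 days and term, and this comparison gave the largest number of calls. It found 922 genes higher in CF (6.77% of 13622) and 657 lower (4.82%), and of these 1579 genes 1337 were also called without cells rich in acinar transcripts. Thinning the duct cells to equal UMIs left 737 calls. For the genes named from it, no overlap means no overlap within each age. Of 49 genes followed singly 40 kept the call when any 1 animal was left out, and the adjusted p of the other 9 (ANKRD1, APOE, CA2, CCL20, NOTCH1, NOTCH3, ONECUT2, SERPINA1 and SPDEF) reached 0.101. Of 15 acinar markers 3 were higher, with a median of 1.00, while without the cells rich in acinar transcripts 0 were higher and 3 lower, with a median of -0.80. Those cells were chosen by the same markers, so a fall of the markers was built into this alternative. These averages give each age the same weight and contain 8 cloned and 2 naturally bred CF animals.

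GNG11, a gamma subunit of heterotrimeric G proteins known from endothelium, was nearly absent from WT duct cells and present in CF. It was at 3.83, 0.7995, 4.44 and 1.96 CPM in controls and 363, 231 and 317 CPM in CF fetuses at 80 days. At 120 days it was at 0.489, 1.004 and 2.87 CPM in WT, 96.4, 151, 112 and 22.7 CPM in cloned CF and 99.9 and 64.97 CPM in the naturally bred CF twins. At term it was at 0, 39.6, 0 and 0.921 CPM in WT and 135, 229 and 525 CPM in CF lambs. The CF animals of each age were all above the WT animals of that age, and WT lamb 2 was the highest of the WT animals. The averaged log2 fold change was 5.83 ± 0.61 (SE, adjusted p = 1.5e-05). At 120 days alone GNG11 did not pass the edgeR test, at 5.75 in clones (adjusted p = 0.0608) and 5.39 in the twins (adjusted p = 0.107).

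At equal depth of 3000 UMIs, GNG11 was found in 0% to 1.87% of duct cells of the controls and 38.1% to 51.4% of those of CF fetuses at 80 days, in 0% to 0.360% in WT, 4.94% to 26.9% in cloned and 9.81% to 16.6% in naturally bred CF at 120 days, and in 0% to 7.33% and 22.6% to 62.5% at term. The PECAM1 cells of the same groups held it in 61.7% to 81.7%. The 9 endothelial markers in duct cells summed to 26.0 to 44.4 CPM in controls and 21.8 to 36.5 CPM in CF at 80 days, and to 16.2 to 57.6 CPM in WT and 33.3 to 42.7 CPM in CF at term. The rule had kept out every cell with a PECAM1 UMI, and the part of endothelial RNA in the level of GNG11 was not tested.

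UCHL1, a ubiquitin hydrolase known from neurons and endocrine cells, followed with a log2 fold change of 4.52 ± 0.51 (SE, adjusted p = 3.3e-05). It was at 54.6, 15.99, 2.22 and 15.1 CPM in controls and 785, 515 and 784 CPM in CF at 80 days, at 9.05, 7.03 and 3.62 CPM in WT and 139.7, 187, 175 and 49.3 CPM in cloned CF at 120 days, and at 1.47, 1.28, 5.55 and 3.68 and 18.7, 20.2 and 63.97 CPM at term. The naturally bred twins differed from each other, at 2.42 and 87.01 CPM. At 120 days alone UCHL1 did not pass the edgeR test, at 4.49 in clones (adjusted p = 0.0608) and 2.72 in the twins (adjusted p = 0.225). At 3000 UMIs a cell it was found at term in 2.35% to 10.98% of duct cells of CF lambs and 0% to 0.926% of those of WT lambs, and in 1.304% and 2.83% of their PECAM1 cells. At 80 days it was found in 64.3% to 77.5% of duct cells of CF fetuses and 0% to 10.4% of those of controls. Their PECAM1 cells held it in 16.4% and 9.15%. At 120 days it was found in 9.06% to 37.2% of duct cells of clones and 1.08% to 2.64% of those of WT. Their PECAM1 cells held it in 5.27% and 1.59%. The endocrine markers in duct cells summed to 453 to 2932 CPM in controls and 406 to 1516 CPM in CF at 80 days.

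Of 25 genes of basement membrane and integrins 9 were higher in CF duct cells and 2 lower, with a median of 0.41 against 0.02 for all genes, of which 6.77% were higher and 4.82% lower. COL4A1, a chain of the type IV collagen that underlies epithelia, was at 413, 367, 313 and 421 CPM in controls and 1501, 1374 and 1953 CPM in CF at 80 days, at 193, 311 and 176 and 487, 377, 841 and 211 CPM in WT and cloned CF at 120 days, and at 119, 151, 92.9 and 104 and 335, 357 and 827 CPM at term. The averaged log2 fold change was 1.904 ± 0.20 (SE, adjusted p = 1.5e-05) and that of its partner COL4A2 1.97 ± 0.25 (SE, adjusted p = 7.4e-05). The groups overlapped at 120 days, where cloned fetus 4 lay within WT, and the naturally bred twins were at 279 and 195 CPM. Between the twins and WT 0 of the 25 genes passed, with 7 positive and 18 negative changes and a median of -0.15. The lower genes were the laminin chain LAMA1 (-1.28) and the plasminogen activator PLAT (-1.03). Stromal markers in duct cells summed to 179 to 1213 CPM in controls and 544 to 1158 CPM in CF at 80 days, and to 6.93 to 498 CPM in WT and 57.2 to 243 CPM in CF at term. Their part in these values was not tested.

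Of 21 profibrotic ligands, secreted factors known to act on stellate cells and fibroblasts, 7 were higher and 1 lower, with a median of 1.02, beside 6.77% of all genes higher and 4.82% lower. The naturally bred twins of 120 days are no part of this average. Between them and WT 0 of the 21 passed, with 10 positive and 11 negative changes and a median of -0.04. PDGFB, a growth factor for mesenchymal cells, was higher by 2.54 ± 0.36 (SE, adjusted p = 0.000166), TGFB2 by 1.43 ± 0.24 (SE, adjusted p = 0.000813), the activin subunit INHBA by 3.51 ± 0.63 (SE, adjusted p = 0.00117), the matrix protein TNC by 3.56 ± 0.53 (SE, adjusted p = 0.000278) and the vasoconstrictor EDN1 by 1.795 ± 0.39 (SE, adjusted p = 0.00525). TGFB3 and IL11 were the other 2 that were higher, and LTBP1, which holds latent TGF-beta in the matrix, was lower (-0.92). IL11 was listed at 0 in the controls of 80 days and in the WT lambs, and its highest level was 6.81 CPM. ADAMTS2, which trims procollagens, was higher by 3.602 ± 0.49 (SE, adjusted p = 0.000146) and did not overlap at any of the 3 ages. The part of stromal or endothelial RNA in the levels of the genes of this paragraph was not tested.

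Of 20 liver-like secreted proteins 4 were higher and 4 lower in CF, beside 6.77% of all genes higher and 4.82% lower. APOA1, the main protein of high-density lipoprotein, was at 7503, 5856, 5245 and 7836 CPM in controls and 28358, 24399.8 and 26844 CPM in CF at 80 days and at 5396, 3567, 4689 and 6625 and 14024, 6036 and 21778 CPM at term, 1.498 ± 0.18 (SE, adjusted p = 4.8e-05). CF lamb 2 lay among the WT lambs in these unscaled levels. Its scaling factor in the fit was 0.590, against 0.925 to 1.04 in WT lambs. Complement C3 was higher by 3.54 ± 0.64 (SE, adjusted p = 0.00139) and complement factor I (CFI) by 1.01 ± 0.17 (SE, adjusted p = 0.000862). AGT was lower (-1.61 ± 0.35 SE, adjusted p = 0.00446). It was at 1109.8, 262, 78.7 and 1167 CPM in cloned CF fetuses of 120 days, at 1600.3 and 2187 CPM in the naturally bred twins and at 2188, 1514 and 1716 CPM in WT, so the twins lay beside WT and the clones below it. APOE was lower (-1.38 ± 0.44 SE, adjusted p = 0.0456), a call that ended in 19 of 35 alternatives, and so was SERPINA1 (-1.48), which ended in 16 of 35. Without cells rich in acinar transcripts 7 of the list were lower, beside 636 of all genes tested, and its median moved from 0.13 to -0.48.

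The tissue kallikrein KLK1 was at 65.8, 57.6, 85.1 and 51.5 CPM in controls and 27.8, 34.6 and 36.3 CPM in CF at 80 days, at 228, 166 and 164 and 82.9, 23.7, 21.1 and 126 CPM in WT and cloned CF at 120 days and 164 and 189 CPM in the twins, and at 209, 142, 213 and 183 and 36.02, 29.3 and 22.3 CPM at term, -1.54 ± 0.23 (SE, adjusted p = 0.000302). CLDN10 was lower (-2.33 ± 0.50 SE, adjusted p = 0.00422), as were corticosteroid-binding globulin SERPINA6 (-2.705) and the potassium channel subunit KCNAB1 (-1.41). Of 21 genes of bicarbonate, chloride and water transport the chloride cotransporter SLC12A2 (0.73) and SCTR (1.12) were higher, and the CFTR partner SLC26A9 (-1.31), carbonic anhydrase CA2 (-0.60) and the sodium pump subunit ATP1B1 (-0.91) lower, with a median of -0.07, beside 6.77% of all genes higher and 4.82% lower. Of 15 mucins and secretory goods 3 were higher, among them MUC1 by 0.89, a membrane mucin. The secreted protease inhibitor-like protein WFDC2 was higher by 2.22 ± 0.37 (SE, adjusted p = 0.000709), at 13.5, 35.2, 29.6 and 51.3 against 149, 126 and 166 CPM at 80 days and 57.5 and 42.5 CPM in the twins.

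Of 22 duct transcription factors 0 were higher and ONECUT2 was lower (-1.33), with a median of -0.08, beside 6.77% of all genes higher and 4.82% lower. SOX9 was at 1267, 911, 906 and 949 CPM in controls and 685, 892 and 824 CPM in CF at 80 days, and at 901, 673, 929 and 919 and 454, 312 and 486 CPM at term, where CF lay below WT without passing (-0.63 ± 0.23 SE, adjusted p = 0.118). Of 18 Notch and Hippo genes NOTCH1 (0.52) and ANKRD1 (1.43) were higher and the receptors NOTCH2 (-0.85) and NOTCH3 (-0.50) and the ligand JAG1 (-0.47) lower, with a median of -0.06. In the naturally bred twins of 120 days, which are no part of the averaged contrast, ANKRD1 was at 68.7 and 76.5 CPM against 326, 503 and 709 CPM in WT, -2.96 ± 0.93 (SE, adjusted p = 0.2). ANKRD1, NOTCH1 and NOTCH3 were among the genes that lost the call without 1 animal. Of 22 genes of the primary cilium and of cystic disease BICC1 was higher (0.98). Of 17 imprinted genes 6 were higher, PEG10 (1.501) and its neighbour SGCE (0.71) among them, and 0 lower, with a median of 0.57.

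**Figure D4:**
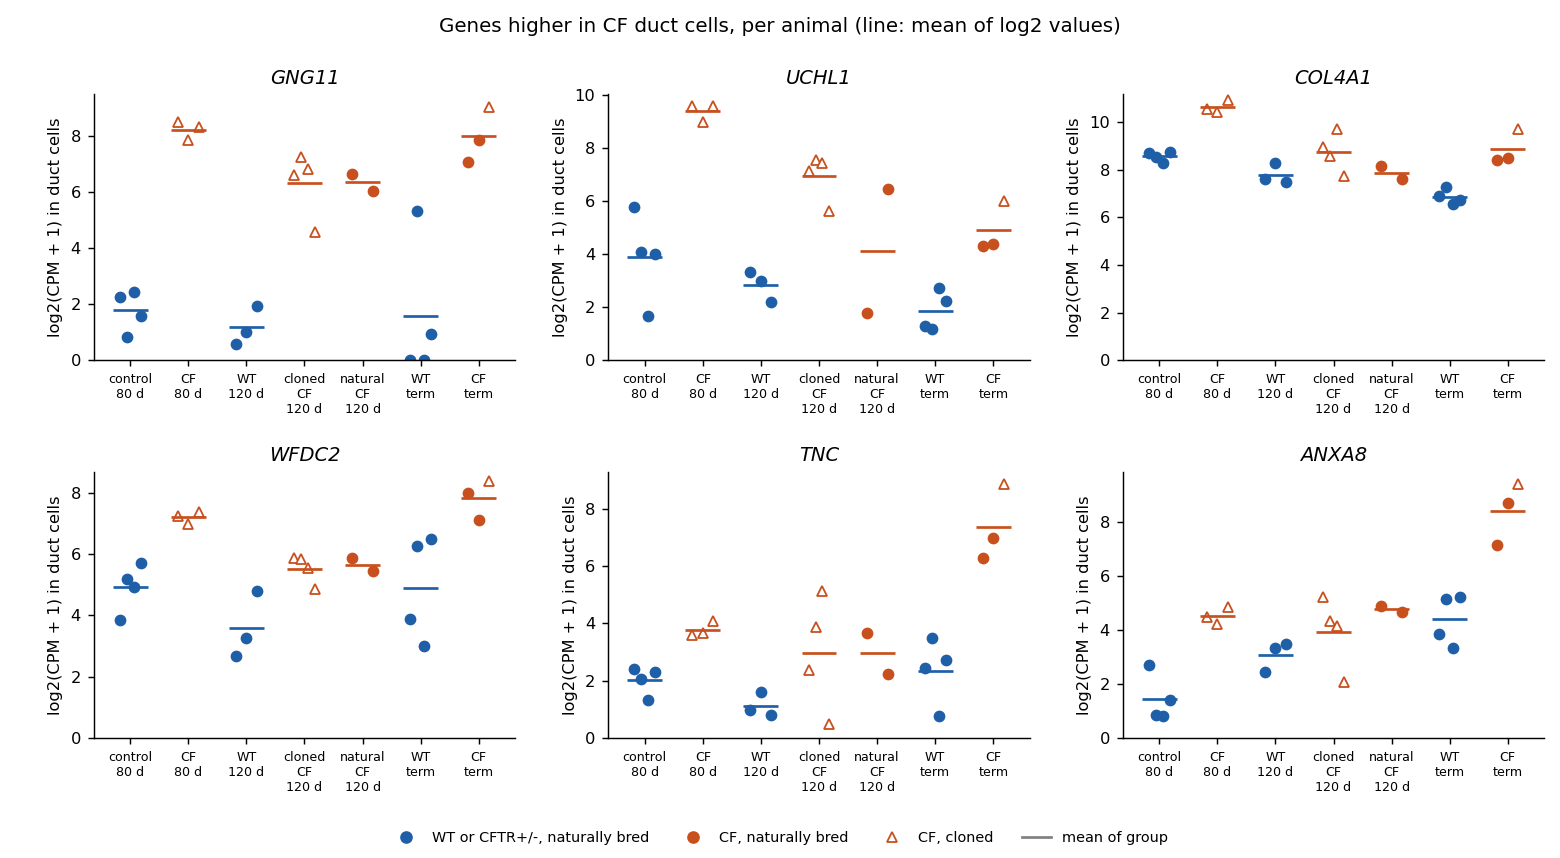
Levels in duct cells of 6 genes that were higher in CF, as log2(CPM + 1), with 1 point for each animal (triangles are clones) and a line at each group's mean. GNG11 does not overlap at any age, the twins of 120 days are split for UCHL1, and TNC and ANXA8 are highest in the CF lambs at term.

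At 80 days alone 110 genes were higher in CF (0.808%) and 56 lower (0.411%). Beside GNG11 (6.798), UCHL1 (4.97) and PDGFB (3.37), the rises included TMEM190 at 232, 151 and 219.9 CPM in CF and 12.5, 6.396, 2.96 and 5.601 CPM in controls (4.83 ± 0.91 SE, adjusted p = 0.00922). FOXJ1, the master factor of motile cilia, was at 33.7, 21.8 and 32.97 CPM and 3.06, 2.399, 2.96 and 4.201 CPM (3.22 ± 0.69 SE, adjusted p = 0.0236), and the phospholipid-binding protein ANXA1 rose by 2.71 ± 0.50 (SE, adjusted p = 0.00854). Of 19 genes of hypoxia and glycolysis lactate dehydrogenase LDHA (2.01) and the HIF hydroxylase EGLN3 (2.35) rose, with a median of 0.30. Among the falls SLC44A5, a choline transporter-like protein, was at 0.562, 0.316 and 0.232 CPM in CF and 15.8, 33.6, 44.4 and 36.97 CPM in controls, -6.44 ± 0.77 (SE, adjusted p = 0.000534). The respiratory subunit COX7A1 (-3.58 ± 0.78 SE, adjusted p = 0.0255) and the endothelin EDN3 (-3.12) were lower too. Of the 23 transcripts of immediate early response and dissociation stress 0 passed, with a median of 0.72.

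The number of calls at 80 days varied with the animals and the fit. Without the 2 CFTR+/- fetuses, which left 2 controls, 4 genes were called, SLC44A5 and PEG10 among them. GNG11 was then at 6.27 (adjusted p = 0.13), UCHL1 at 4.55 (adjusted p = 0.146), COL4A1 at 2.18 (adjusted p = 0.0999) and APOA1 at 2.097 (adjusted p = 0.0619), so their log2 fold changes kept their direction without passing. In a fit of these groups alone 1132 were called, after thinning all duct cells to equal UMIs 71, and with 1 animal left out between 39 (without CF fetus 3) and 109 (without WT fetus 1). Of 23 genes followed singly 10 kept the call when any 1 animal was left out, GNG11, UCHL1, PDGFB, COL4A1, APOA1, LDHA, PEG10, SLC44A5 and IL1R1 among them, and the adjusted p of the others reached 0.266.

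At 120 days, between cloned CF and WT, 2 genes were higher (0.0147%) and 1 lower (0.00734%), which are named because they are so few, GPA33 and LOC105604543 after their values were seen. They were UBASH3B, a phosphatase, at 36.02, 13.96, 21.1 and 21.8 CPM in clones and 3.43, 5.02 and 3.49 CPM in WT (2.61 ± 0.40 SE, adjusted p = 0.0192), GPA33, an epithelial surface antigen, at 8.62, 16.2, 15.5 and 6.82 and 1.22, 1.51 and 0.125 CPM (3.95 ± 0.63 SE, adjusted p = 0.0192), and the unnamed LOC105604543. In the naturally bred twins UBASH3B was at 3.49 and 4.22 CPM and GPA33 at 4.296 and 5.86 CPM. Each of these calls ended without at least 1 animal, with adjusted p of up to 0.137 for UBASH3B and GPA33, and DESeq2 called 188 genes. Leaving out 1 animal gave 132 genes without cloned CF fetus 4 and 0 to 4 without any other, and the replicate number as a block gave 80. Between the twins and WT 0 genes passed (0.0%), with 1712 at an unadjusted p under 0.05, and DESeq2 called 195. Of 22 genes of injury and inflammation 0 passed in either comparison, with a median of 1.13 for clones and -0.48 for the twins. Both comparisons share the 3 WT fetuses.

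At term 568 genes were higher in CF than in WT lambs (4.17%) and 183 lower (1.34%). ANXA8, a calcium-binding protein of stratified epithelium, was at 13.6, 34.9, 9.01 and 36.8 CPM in WT and 144, 417 and 695 CPM in CF lambs, 4.55 ± 0.65 (SE, adjusted p = 0.000927). Tenascin C (TNC), an extracellular protein of wounds and fibrosis, was at 4.41, 10.2, 0.693 and 5.52 CPM and 77.9, 125 and 468 CPM, 5.597 ± 0.83 (SE, adjusted p = 0.00122), and KRT17, a keratin of stressed epithelium, at 0, 3.52, 0.693 and 6.44 CPM and 92.9, 61.1 and 18.5 CPM, 5.07 ± 1.08 (SE, adjusted p = 0.0106). The CF lambs were above all WT lambs for these 3 genes, in clone and naturally bred lambs alike. At 3000 UMIs a cell KRT17 was found in 2.28% to 5.94% of duct cells of CF lambs and 0% to 1.83% of those of WT lambs, so few cells held it, and in 0.621% and 0.666% of the PECAM1 cells of these groups. Complement factor B (CFB) rose by 4.01 ± 0.67 (SE, adjusted p = 0.00262), and CLDN18, a claudin of stomach and lung, by 3.94 ± 0.87 (SE, adjusted p = 0.013). PIGR rose by 1.398 ± 0.30 (SE, adjusted p = 0.0112) and MUC1 by 1.91 ± 0.36 (SE, adjusted p = 0.00569). COL4A1 (2.48), COL4A2 (2.84), FN1 (2.34), ITGA3 (2.05) and ITGB4 (1.499) rose among 25 genes of basement membrane and integrins, and LAMA1 fell (-1.73), with a median of 0.76.

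Of 25 cell division genes 4 were higher at term and 0 lower, CENPF (2.47), BIRC5 (2.77), RRM2 (1.98) and CENPE (2.12), with a median of 1.85 against 0.02 for all genes, of which 4.17% were higher and 1.34% lower. Genes with lower levels in CF lambs included KLK1 (-2.22 ± 0.42 SE, adjusted p = 0.00538), the hormone stanniocalcin STC1 (-2.13 ± 0.28 SE, adjusted p = 0.000675), the adhesion receptor ADGRF5 at 249.8, 166, 239 and 216 CPM in WT and 27.3, 0.964 and 18.3 CPM in CF (-3.49 ± 0.73 SE, adjusted p = 0.00984), SLC26A9 (-2.097), OTOL1 (-2.52) and the keratin KRT77 (-2.63). APOE was lower (-2.78 ± 0.82 SE, adjusted p = 0.0499), a call that ended in 11 of 19 alternatives. CCL26, which rose with age, was at 824, 469.7 and 333 CPM in CF lambs and 755, 1429.5, 901 and 4205 CPM in WT lambs, and this difference did not pass (-1.32 ± 0.68 SE, adjusted p = 0.273).

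Acinar transcripts and 2 mural markers moved with the term comparison. The 15 acinar markers summed to 10775 to 114418 CPM in duct cells of CF lambs and 2377 to 20017 CPM in WT lambs. Of them 8 were called higher, with a median of 2.78, beside 4.17% of all genes called higher. Without the cells rich in acinar transcripts 0 of 15 were called, and the median turned to -0.93. Those cells were chosen by these 15 markers, PLA2G1B and SPINK1 among them, so a fall of the markers was built into this alternative. The totals were then 396 genes higher (2.95%) and 112 lower (0.835%), of which 442 were among the 751 called with all duct cells. Phospholipase PLA2G1B went from 3.27 to -0.36, the trypsin inhibitor SPINK1 from 3.03 to -0.27, the zymogen granule protein ZG16 from 4.96 to -0.04 and the chaperone cofactor SDF2L1 from 2.11 to -0.01. ANXA8 (4.84), TNC (5.73), KRT17 (4.82), COL4A1 (2.72), KLK1 (-3.23) and CENPF (2.87) kept their calls, as did, outside the 4 genes just given, each gene named above as higher or lower at term except KRT77 (-2.47, adjusted p = 0.0501) and APOE (-2.64, adjusted p = 0.0668). The 8 stellate and mural markers summed to 465 to 2255 CPM in CF and 127 to 449 CPM in WT lambs, and 2 of them rose, TAGLN from 86.3, 101, 4.16 and 90.2 CPM in WT to 311, 565 and 1952 CPM in CF (4.05 ± 0.83 SE, adjusted p = 0.00889) and CALD1 (1.19 ± 0.30 SE, adjusted p = 0.0255), both of the contractile cytoskeleton. Of all 8 mural markers 2 were called higher, beside 4.17% of all genes. The 8 had 5 positive and 3 negative changes, with a median of 0.35. Their part in the other differences was not tested.

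The term calls depended on the fit and on CF lamb 2, which held the most acinar RNA. A fit of these groups alone called 36 genes, after thinning 319, and with 1 animal left out 171 (without CF lamb 2), 282 (WT lamb 1), 339 (WT lamb 3), 388 (CF lamb 3, the clone), 600 (WT lamb 4), 845 (WT lamb 2) and 1306 (CF lamb 1). Of 49 genes followed singly 17 kept the call when any 1 animal was left out, among them ANXA8, TNC, KRT17, GNG11, COL4A1, COL4A2, CFB, PIGR, APOA1, RRM2, TAGLN, KLK1, STC1, ADGRF5 and OTOL1. Without CF lamb 2, 28 of the 49 lost it, with adjusted p of up to 0.845, and without WT lamb 1, 19 did, with adjusted p of up to 0.132.

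**Figure D5:**
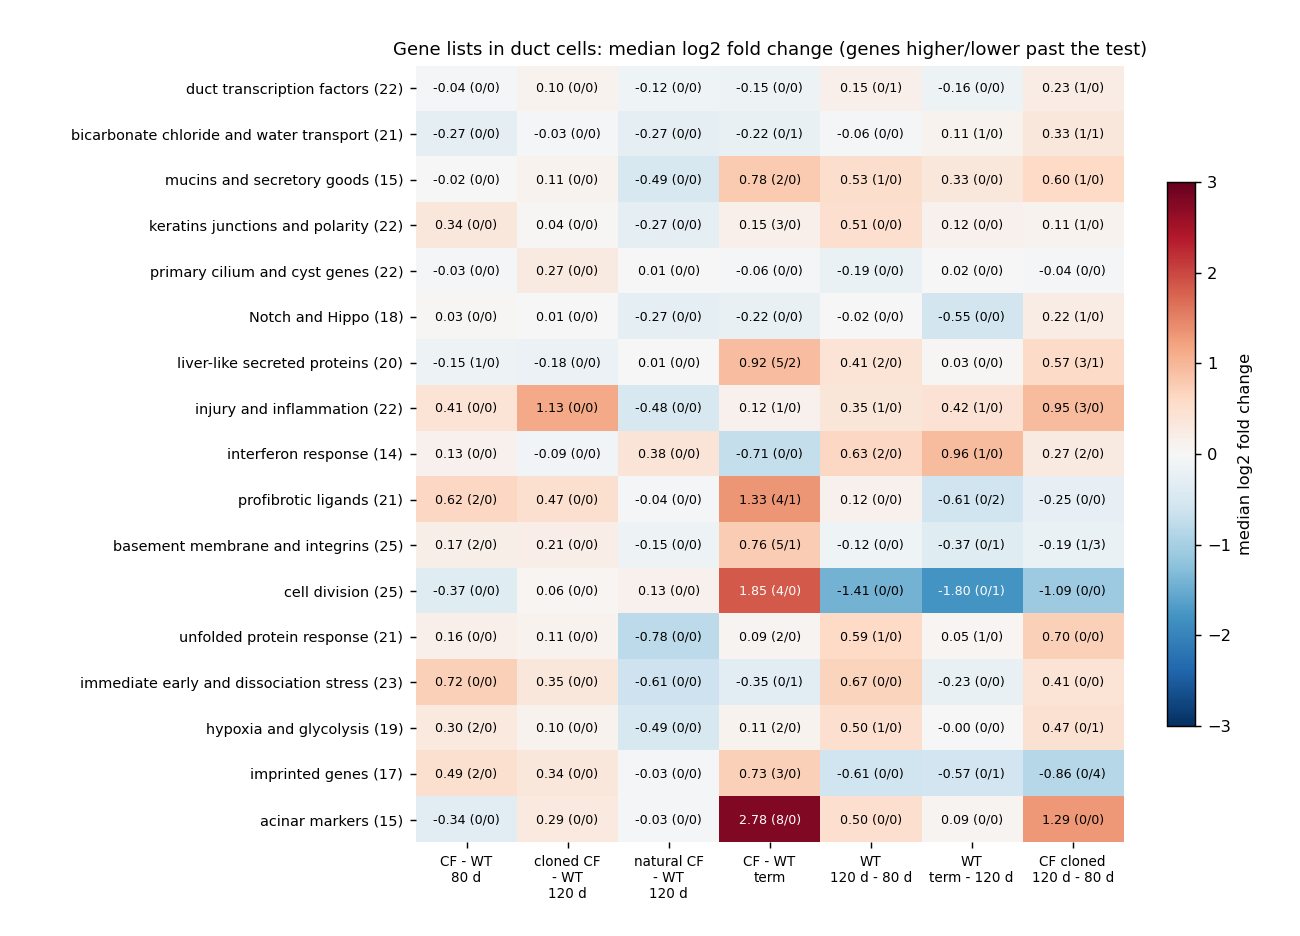
Median log2 fold change of 17 gene lists in 7 comparisons, as colour and number, with the genes higher and lower past the test in brackets and the number tested beside each list's name. Cell division is at 1.85 and acinar markers at 2.78 between CF and WT at term, and the median of cell division is -1.41 and -1.80 in the WT age steps.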

How the data were processed

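Single-cell RNA was measured in 26 libraries of 23 sheep, and the 2 libraries of each of 3 animals were pooled by animal. The authors deposited UMI counts per gene and cell, made with Cell Ranger 3.1.0 (per the processing notes) from 10x Genomics 3′ libraries against the sheep assembly Oar_v4.0, as filtered matrices with 24478 genes in 3 files per library. Library totals ran from 7841220 to 171256000 UMIs. No sequences are printed, since the files used hold none.

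Cells were kept and called by the filters given in the report. Counts of duct cells were summed per animal without 89 ribosomal protein genes, and 13622 genes passed edgeR's filterByExpr. They were tested by the edgeR 4.0.16 quasi-likelihood test (R 4.3.3) with TMM scaling, in 1 fit of 7 groups with 9 contrasts. A gene was called at a Benjamini-Hochberg adjusted p of at most 0.05, and the standard errors (SE) come from the same fit. DESeq2 1.42.0 was an alternative. Levels are counts per 1000000 (CPM) of the non-ribosomal UMIs of an animal's duct cells, without TMM scaling. Shares were compared by exact two-sided permutation tests over animals (scipy 1.17.1), adjusted over 6 comparisons. Wilson intervals are 95%. Likely doublets were marked by Scrublet in scanpy 1.11.5, at a rate of 0.8% per 1000 cells, in 4.36% of kept cells and 323 duct cells. They were kept, and left out in an alternative. The scripts were tested on simulated counts.

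Named genes were the 12 largest rises and 12 largest falls of each comparison that passed, did not overlap between groups, reached a mean of 20 CPM in the higher group and had a symbol that is not a LOC identifier. Members of the gene lists that passed, and up to 4 members of each list with the highest mean level, could be named too, and GPA33, LOC105604543 and IL11 were named after their values were seen. The duct cell rule, the lists and the tests were chosen with earlier results of these data known. Of 8432 LOC identifiers, 497 were named through RefSeq and 70 through identifier pairs in the study's supplementary tables. Alternatives were other size factors, no low-count filter, fits of the compared groups alone and with the replicate number as a block, thinning, other numbers of rule genes, and leaving out doublets, cells rich in acinar transcripts, CFTR+/- fetuses, the cloned lamb or each animal. One gene is not reported here.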

Additional observations from a re-analysis of the deposited data

Results flagged for a closer look

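One animal lay far from the rest of its group in 30 of 302 groups of 4 to 6 animals looked at (9.93%), by a gap to its neighbour, relative to the range of the group, above Dixon's 95% critical value. By the definition of that value chance gives about 1 in 20 for independent, normally distributed values, and these groups share animals. Levels are in CPM of duct cells. The share of duct cells was 42.1% in cloned CF fetus 4 of 120 days and 27.4% in WT lamb 1.

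WT lamb 2 was the animal in 9 of these groups. It was high in GNG11 (39.6 CPM), C3 (28.8 CPM), CFP (361 CPM), CENPF (43.8 CPM), CYM (13.7 CPM), EDN1 (38.7 CPM) and ITGB6 (30.7 CPM), and low in SLC26A9 (9.91 CPM) and SOX9 (673 CPM). Cloned CF fetus 3 of 120 days, with 97 duct cells, was high in SEPT4 (68.7 CPM), ADAMTS2 (101 CPM), C3 (105 CPM), SCTR (472 CPM), NOTCH1 (115 CPM) and BICC1 (683 CPM). Among the other WT lambs, lamb 3 stood apart in TAGLN (4.16 CPM) and NOTCH1 (37.4 CPM), and lamb 4 in LAMA1 (25.8 CPM) and OAS1 (145 CPM).

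At 120 days cloned CF fetus 4 stood apart in HES1 (1205 CPM), and cloned CF fetus 1 in POSTN (9.05 CPM) and ANKRD1 (1489 CPM). Among the controls of 80 days, WT fetus 3 stood apart in CCL26 (63.6 CPM) and SLC26A9 (31.8 CPM), CFTR+/- fetus 2 in SGCE (42.4 CPM) and ITGB6 (2.40 CPM), and CFTR+/- fetus 4 in SERPINA6 (13.2 CPM) and CCL20 (0.560 CPM).

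In 4 genes every CF animal, counting only clones at 120 days, lay above every WT animal at 1 age and below at another. The share of all genes that do so was not set beside this count, so it shows nothing particular to these genes. The plasma protein AHSG was above at term, with a log2 fold change of 6.90, and below at 80 days, with -1.46, though at term it was 224 CPM in CF lamb 2 and 3.01 and 4.18 CPM in the others, and 1.37 (adjusted p = 0.501) without cells rich in acinar transcripts. The prolyl hydroxylase P4HA1 was above at 80 days, with 0.75, and below at term, with -0.48, and the difference between ages was tested for neither gene. HES1 was above in cloned CF at 120 days, with 0.83, and below at 80 days, with -1.17, while in the naturally bred twins of 120 days it was at 247 and 353 CPM against 347 to 575 CPM in WT. At equal depth the PECAM1 cells held HES1 in 25% in CF and 39.0% in controls at 80 days. At 120 days they held it in 60.5% in clones, 10.1% in the twins and 57.1% in WT. Whether the HES1 differences were particular to duct cells was not tested. The BMP modulator KCP was above in cloned CF at 120 days, with 1.16, and below at 80 days, with -0.53. The test of the difference between these ages gave an adjusted p of 0.618 for HES1 and 0.56 for KCP by edgeR, so neither passed.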

How the results depend on the processing

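The counts of called genes varied with the fit and with the cells and animals that entered. DESeq2 called 397 genes between CF and WT at 80 days, 188 for cloned and 195 for naturally bred CF at 120 days, 1141 at term, 418 and 341 in the WT age steps, 871 in the cloned CF step and 14 for the difference of the age steps. A fit of the compared groups alone gave 1132, 60 (naturally bred), 36 (term), 512, 41 and 154. Thinning to equal UMIs gave 71 at 80 days, 319 at term, 56 for WT from 120 days to term, 265 for the cloned CF step and 737 for the average over ages. No low-count filter gave 12 for cloned CF at 120 days. Without the CFTR+/- fetuses 4 genes were called at 80 days and 4 from 80 to 120 days in WT, and without the cloned CF lamb 388 at term. Without WT lamb 1 and cloned CF fetus 3 the counts were 346 at 80 days, 9 (cloned) and 10 (naturally bred) at 120 days, 340 and 225 in the WT steps and 779 in the cloned CF step. Without cells rich in acinar transcripts 159 genes were called in WT from 80 to 120 days. The last 2 alternatives were chosen after the data were seen, and the causes were not tested.

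Leaving out 1 animal at a time gave 39 to 109 genes at 80 days, 0 to 132 for cloned and 0 to 0 for naturally bred CF at 120 days, 171 to 1306 at term, 31 to 95 and 40 to 187 in the WT steps, 55 to 754 in the cloned CF step, 0 to 1 for the difference of the steps and 1136 to 1892 for the average. The difference in the share of duct cells ran from 5.83 to 10.6 percentage points at 80 days, -0.942 to 5.48 at 120 days, -1.37 to 12.4 at term, 3.65 to 7.69 and -9.40 to -2.15 in the WT steps and -2.95 to 7.66 in the cloned CF step. That in the dividing share ran from -3.31 to -0.192 points at 80 days, 1.04 to 2.17 at 120 days, 4.54 to 7.62 at term, -12.4 to -10.4 and -5.16 to -4.19 in the WT steps and -9.39 to -6.27 in the cloned CF step.

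Same-numbered animals deviated together only weakly (correlations of -0.238 to 0.259), so the numbers were not taken to pair them. With the replicate number as a block, in a fit of the compared groups alone, 420 genes were called at 80 days, 80 for cloned CF at 120 days, 19 at term, 162 and 2 in the WT steps, 323 in the cloned CF step and 1159 for the average. Naturally bred CF and WT fetuses of 120 days share no number.

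Over 198 results of single genes and 4495 alternatives, 3815 kept direction and side of the threshold, 633 lost the call, 27 gained it and 20 turned direction. Of those 20, 16 were uncalled values of naturally bred CF at 120 days: UCHL1 (-1.46 without fetus 6, 3.66 without fetus 5), COL4A1 (0.00815, 0.00214, 0.0390, 0.00996 and 0.0577, and -0.33 to 0.23 without 1 animal), AGT (0.0117, 0.0685 and 0.0457, and -0.26 to 0.15 without 1 animal) and CLDN10 (0.15, and -0.54 to 0.17 without 1 animal). The others were PLA2G1B (-0.36), SPINK1 (-0.27), ZG16 (-0.0415) and SDF2L1 (-0.00579) at term without cells rich in acinar transcripts. The depth limits genes near 1 CPM, since 97 to 1492 duct cells stand behind each animal.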

Other observations

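Further genes of duct cells passed the test. From 80 to 120 days in WT, PDK4 (2.26, a kinase that spares glucose), GPAM (2.06, the first enzyme of triglyceride synthesis), the sterol enzyme CYP51A1 (2.15) and the chaperone HSPA5 (1.39) rose on the log2 scale, with adjusted p of 0.0206, 0.0462, 0.047 and 0.0375 (edgeR quasi-likelihood). From 120 days to term in WT, the antiviral enzyme OAS1 (4.56 ± 1.00 SE, adjusted p = 0.0334) and the gluconeogenic enzyme FBP2 (3.23 ± 0.64 SE, adjusted p = 0.0174) rose, and the condensin subunit NCAPG (-1.96 ± 0.44 SE, adjusted p = 0.0388) and the basement membrane collagen COL18A1 (-1.03 ± 0.24 SE, adjusted p = 0.0418) fell. Without cells rich in acinar transcripts NCAPG did not pass (adjusted p = 0.0646).

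At 80 days the neural adhesion molecule L1CAM was higher in CF (3.99 ± 0.94 SE, adjusted p = 0.0359), and the matrix protein SMOC2 (-2.87 ± 0.68 SE, adjusted p = 0.0374), the leukocyte adhesion molecule ICAM3 (-2.71 ± 0.64 SE, adjusted p = 0.0359) and the interleukin 1 receptor IL1R1 (-2.75 ± 0.46 SE, adjusted p = 0.00442) were lower. At term the neuropeptide-like NXPH1 (-3.68 ± 0.75 SE, adjusted p = 0.00884) was lower in CF and the calcium-binding S100A9 (5.95 ± 1.59 SE, adjusted p = 0.0335), known from neutrophils, higher. Immune markers in duct cells summed to 25.6 to 32.1 CPM in CF lambs and 6.62 to 48.0 CPM in WT lambs. Of the 14 genes named in these paragraphs, IL1R1 alone kept its call when any 1 animal of its comparison was left out.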
